A study of Mus musculus with 4 samples.

Results

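The genes numbered Zfp900 to Zfp999 are a block of rodent zinc finger genes. They were taken by name, as every row of the count table whose symbol runs from Zfp900 to Zfp999. This gave 62 of the 49997 genes in the table, and Zfp989 had no row. RNA was sequenced from E14 cells, a line of mouse embryonic stem cells (ESCs) derived from the early embryo and grown here on gelatin with leukemia inhibitory factor. One group carried a control short hairpin RNA (shScramble, 2 libraries) and the other a hairpin against Ythdf2 (shYthdf2, 2 libraries), both from a lentivirus with puromycin selection of stable lines. The study describes its Ythdf knockdown ESCs as carrying a tdTomato reporter driven by the promoter of the retrovirus MERVL, and the labels do not say whether the sequenced cells carried it. The labels do not say which Ythdf2 hairpin was used or whether the libraries of a group came from separately infected lines, so p-values cover the spread between these libraries only.

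Most genes of this kind encode Krüppel-associated box zinc finger proteins (KZFPs). An array of C2H2 fingers reads the DNA, and the KRAB box recruits the corepressor TRIM28 (also called KAP1), which brings the histone methyltransferase SETDB1. In ESCs this system keeps endogenous retroviruses and other retroelements silent. KZFP genes multiply by local duplication, so they lie in clusters of close relatives, and the clusters on chromosomes 2 and 4 are known for proteins that bind young retroviruses. YTHDF2 is a cytoplasmic protein that binds RNA carrying N6-methyladenosine (m6A) and promotes its decay.

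The members fell on the chromosomes in a few dense groups. When neighbours with starts at most 5 Mb apart were joined, 4 clusters held at least 5 tested genes. The chromosome 4 cluster (145510759 to 147849126, mm10) had 14 members. The chromosome 17 cluster (17064103 to 22867309) had 11, the chromosome 2 cluster (175372034 to 178078425) had 9, and the chromosome 7 cluster (39449479 to 43192109) had 5. The other 23 members lay alone or in smaller groups.

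The fingers of these proteins are joined by a short conserved linker of 5 residues, and the DNA that encodes it is shown to let the members be compared within and between clusters. The stretches printed here run from the last histidine codon of a finger to the first cysteine codon of the next, at the first such linker of each coding sequence, in GENCODE M21 transcripts on GRCm38 (the same build as mm10). They are shown for 9 genes that the results turn on, 5′ to 3′ on the coding strand, with the 5 linker codons in capitals.
Zfp990 (chr4:145537385-145537411, + strand): catACAGGAGAGAAACCGtacaaatgt
Zfp978 (chr4:147390832-147390858, + strand): catACAGGAGAGAAACCTtacaaatgt
Zfp984 (chr4:147755505-147755531, - strand): catACAGGAGAGAAACCTtacaaatgt
Zfp985 (chr4:147583706-147583732, + strand): cacACCGGAGAGAAACCTtacaaatgc
Zfp995 (chr17:21880613-21880639, - strand): catACAGGAGAGAAACCTtacaaatgt
Zfp968 (chr2:175382175-175382201, + strand): catACAGGAGAAAAACCCtatgaatgt
Zfp936 (chr7:43189537-43189563, + strand): catACTGGAGAGAAACCTtaccaatgt
Zfp932 (chr5:110008897-110008923, + strand): catACTGGAGAGAAACCTtacaaatgt
Zfp961 (chr8:71968470-71968496, + strand): cacACTGGGGAGAAACCTtttgaatgt

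The stretch of Zfp978 and Zfp984 occurred letter for letter in 6 of the 14 chromosome 4 members, and also in Zfp995 and 2 others of the 11 on chromosome 17. On chromosome 2 the 8 members with a linker held 3 different stretches. The one printed for Zfp968 was found in 3 of them and differed from the chromosome 4 stretch at 4 of 27 bases. Another stretch, held by Zfp970 and Zfp971 among others, was found in just as many, so the printed one does not stand for the whole cluster. On chromosome 7 the stretch of Zfp936 was shared by 3 of the 4 members with a linker and differed from the chromosome 4 stretch at 2 bases. The linker letters ACAGGAGAGAAACCT, searched on the coding strand of 1 transcript a gene, were in 24 of the 60 members with a coding transcript (40%) and in 60 of 21877 coding genes (0.274%). Zfp987 held 12 copies. These letters were chosen as the commonest first linker of the members themselves, so their larger share among members is in part set by that choice. Other zinc finger genes were not counted apart from all coding genes.

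This likeness bears on the counts. The reads were 150 bases long, and 28 members shared no stretch of 150 bases with another gene's transcript. The search used the longest GENCODE transcript of a member, which can be shorter than the exons counted. For Zfp993 it had 1275 bases, against 4535 in the counted exons. For 17 members over 10% of such windows occurred elsewhere, and for 10 over 50%, among them Zfp965 and Zfp967 (100% each), Zfp968 (98.6%) and Zfp993 (60.9%). How the aligner placed such reads is not given in the sources used here, so counts of those members are uncertain. Zfp985, Zfp990, Zfp995, Zfp936 and Zfp961 shared none, Zfp984 shared 16.2% and Zfp978 36.8%. A further copy of the same gene was not searched for. The count table lists 7 members also on an extra contig outside the main chromosomes, among them Zfp979, Zfp984, Zfp985 and Zfp988. Their counts are uncertain for that reason too.

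The encoded proteins were arrays of fingers. Among 60 coding members the median was 489 residues and 11 C2H2 fingers, with a range of 0 to 21 fingers. A KRAB A box pattern within the first 120 residues was found in 37, and in 54 when tyrosine was also allowed at its first position, a change made after the sequences were seen. Transcripts of 3 members were incomplete in the annotation (Zfp968, Zfp978 and Zfp993). The letters GGAC, the core in which m6A is most often placed, occurred at a median of 1.67 per kb on the coding strand of the 55 tested members with a transcript, against 4.07 per kb over 14063 tested coding genes. At least 1 GGAC was present in 92.7% and 99.7% of them, and the presence of m6A was not measured in these libraries.

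Counted reads came to 36422510 and 31113006 in shScramble replicates 1 and 2, and to 34812976 and 35305720 in those of shYthdf2. The members took 59140 to 82540 reads of a library. Ythdf2 itself had 3365 and 2760 reads in shScramble and 1086 and 1082 in shYthdf2, a log2 fold change of -1.55 ± 0.11 (SE, adjusted p = 0.000693, edgeR). All 10 ESC markers were read in every library, at a summed 6516 to 7416 CPM, that is, counts scaled to library size, and 1 of them was called lower. The 8 primitive endoderm markers summed to 104.8 to 133.4 CPM. Of 8 fibroblast or feeder markers 5 were read in every library and Dcn was at 0, with sums of 12.9 to 28.7 CPM. A few ESCs in a culture resemble the blastomeres of the 2-cell embryo (2C-like cells), and of 16 genes that mark them 15 were read in every library. Their sums were 57.2 and 84.2 CPM in shScramble and 120.6 and 328.2 in shYthdf2, and 4 of the 15 tested were called higher. As these are bulk samples, fewer cells of a type and less RNA per cell cannot be told apart.

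Levels per kilobase ranged widely among the members. The mean over the 4 libraries was at least 10 CPM per kilobase of exon (RPKM) for 13 of the 62 and under 1 for 16, with a median of 2.82. The chromosome 4 cluster alone held 64.7% of all member reads. The median of its 12 tested members was 27.3 RPKM (range 1.41 to 116.7), against 10.3 on chromosome 7, 2.12 on chromosome 17, 1.97 on chromosome 2 and 2.82 over the members elsewhere. The highest member was Zfp990 at 116.7 RPKM, followed by Zfp978 (88.1) and Zfp979 (58.2), the gene of the strain-specific modifier Ssm1b, which acts on transgene methylation. Zfp985 (48.1) and Zfp988 (44.7) came next, all of them on chromosome 4. Zfp961 on chromosome 8 followed at 36.6 RPKM. For members also listed on an extra contig, reads were counted there too, but RPKM used the exon length on the chromosome alone. For Zfp979, Zfp985 and Zfp988 the counted length was 5137, 5701 and 6406 bases, against 2576, 2863 and 3203 in RPKM. Over the counted length their RPKM would be lower. Their ranks, the chromosome 4 median and the number at or above 10 RPKM depend on this choice. Zfp932, which together with its paralog Gm15446 represses endogenous retroviruses, stood at 2.97 RPKM.

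**Figure D1:**
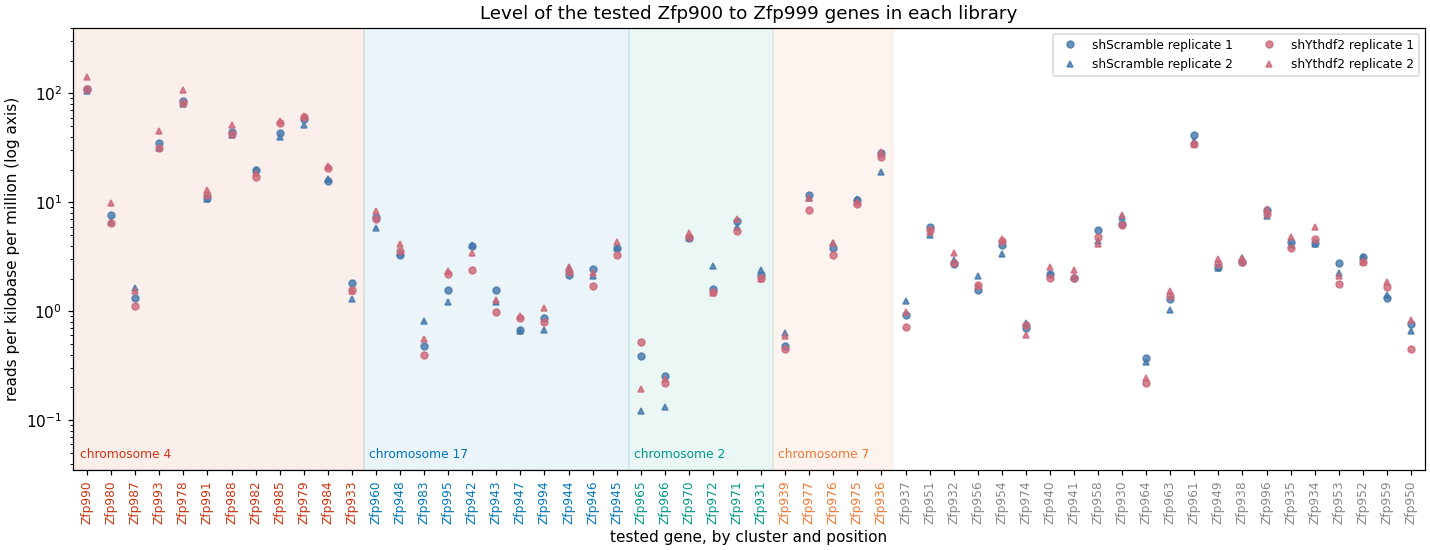
RPKM (log axis) for each of the 56 tested members, with 1 point per library, circles for replicate 1 and triangles for replicate 2, blue for shScramble and red for shYthdf2. The chromosome 4 cluster on the left holds 9 of the 13 members at or above 10 RPKM, and within a gene the 4 libraries lie close together compared with the spread between genes.

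No read was counted for 3 members. Zfp981 and Zfp992 were at 0 in every library, and each base of their exons lay inside the row of Vmn2r-ps16, a pseudogene entered as 1 unbroken block of 160377 bases on the same strand. The counting command carried no option for overlapping genes, and featureCounts by default gives a read that overlaps several genes to none of them. The table does not show how many reads were left unassigned here, so the part of this overlap in the counts of 0 was not tested. The same holds for Zfp980 and Zfp987, of whose exon bases 69.2% and 68.4% lie in the rows of Vmn2r-ps15 and Vmn2r-ps17. Their levels per kilobase are still given over the full exon length. Zfp957 on chromosome 14 was also at 0 in all 4 libraries, and its exons overlapped no other gene. A count of 0 allows up to 3 reads per library, by counting error only.

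The 56 tested members were compared between shYthdf2 and shScramble to ask whether KZFP transcripts changed when Ythdf2 was lowered. None was called higher or lower at an adjusted p under 0.05 in edgeR's quasi-likelihood test with Benjamini-Hochberg adjustment over 18341 genes, where 2.43% of all genes were called higher and 1.49% lower. At an unadjusted p under 0.05 there were 3 members higher and 0 lower, against 11% and 9.8% of all genes. In DESeq2 the adjusted p was under 0.05 for 3 members, all higher, of the 54 that received one, against 5.55% of 14565 genes higher and 4.22% lower. The criteria of the study ask DESeq2 for an unadjusted p up to 0.05 together with a change of 1 or more on the log2 scale in either direction. By them 0 members were higher and 0 lower, against 1.63% and 1.25% of 30565 genes. Both shYthdf2 libraries lay above both shScramble libraries for 13 members and below for 9, shares under the 26.2% and 25.5% over all genes.

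The changes were small where they could be measured well. For 48 of the 56 members the 95% interval of the log2 fold change lay within -1 to 1, so a change of 2-fold or more lay outside it. The exceptions were genes of few reads, such as Zfp965 and Zfp966, and Zfp995. The median log2 fold change was 0.04 (range -0.62 to 0.71, 31 positive and 25 negative), beside 0.00 over all genes tested and 0.06 over the 288 other tested genes named Zfp and a number. Of these others 7 were called higher and 2 lower.

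**Figure D2:**
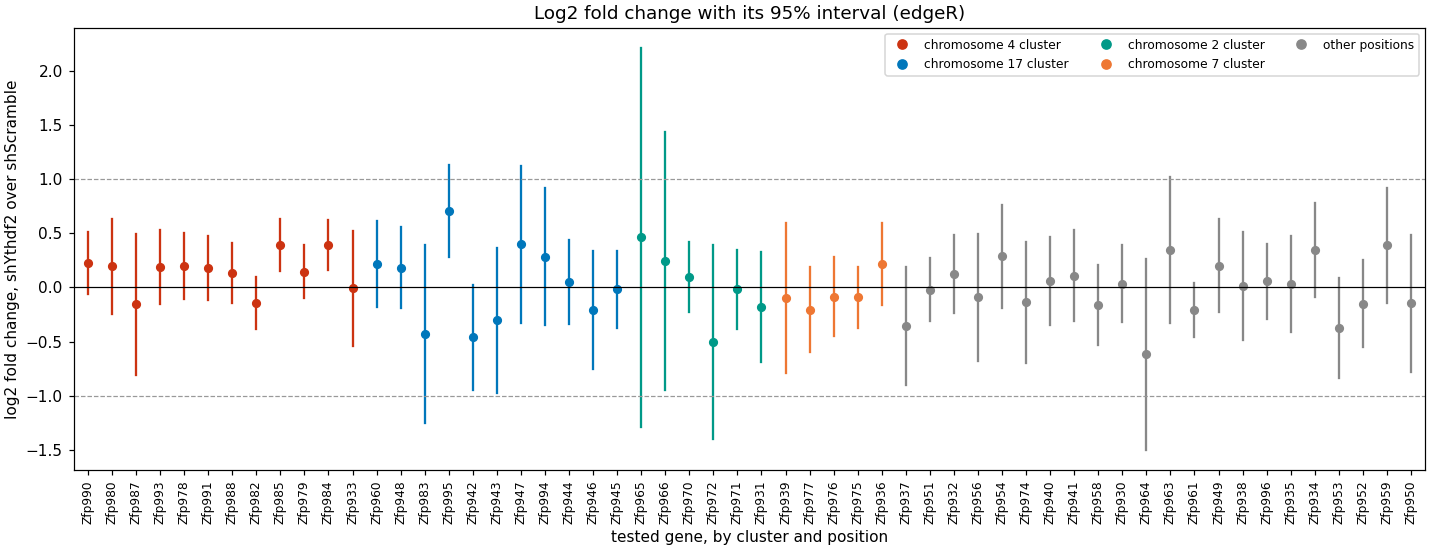
Log2 fold change of each tested member, shYthdf2 over shScramble, as a point with its 95% interval from edgeR, coloured by chromosome cluster, with dashed lines at -1 and 1. The intervals of 3 genes, Zfp984, Zfp985 and Zfp995, lie wholly above 0, and none lies wholly below.

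The same 3 members were nearest to a call. Zfp985 read 125.1 and 112.8 CPM in shScramble and 152.2 and 160.8 in shYthdf2. Zfp984 read 83.3 and 86.8 CPM against 108.8 and 114.1. Both genes sit in the chromosome 4 cluster and are also listed on an extra contig. In each the shYthdf2 libraries were above the shScramble libraries with no overlap. Their log2 fold changes were 0.40 ± 0.11 and 0.39 ± 0.10 (SE), with adjusted p = 0.0740 and 0.0714 in edgeR and 0.0203 and 0.0227 in DESeq2. Zfp995 on chromosome 17, at 1.83 RPKM a gene of much lower level, read 10.9 and 8.60 CPM in shScramble and 15.5 and 16.4 in shYthdf2. Its change was the largest of the tested members at 0.71 ± 0.19, with adjusted p = 0.0746 in edgeR and 0.0235 in DESeq2. All 3 also passed the adjusted threshold in edgeR with no filter on low counts (adjusted p from 0.0172 to 0.0282), and none did in limma-voom.

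On chromosome 4 several of the most abundant members were high in a single library. The log2 fold changes of the 12 tested members had a median of 0.18, with 9 positive and 3 negative. Both shYthdf2 libraries lay above both shScramble libraries for 4 of the 12, beside 26.2% of all genes tested. They lay below for 1, beside 25.5%. Zfp990 read 227.9 and 214.8 CPM in shScramble and 227.2 and 291.4 in shYthdf2. Zfp978 read 217.3 and 205.4 against 208.5 and 276.6, and Zfp988 read 141.7 and 131.7 against 134.6 and 165.2. In all 3 genes shYthdf2 replicate 1 lay between the shScramble values, and replicate 2 stood above the rest. Their log2 fold changes were 0.23 ± 0.13, 0.20 ± 0.14 and 0.13 ± 0.12, with adjusted p of 0.354, 0.451 and 0.590 in edgeR. Zfp979 was more even, at 151.3 and 133.1 CPM against 155.4 and 159.4. Zfp987, lowest in the cluster by change, read 3.78 and 4.63 CPM against 3.16 and 4.39 (-0.15 ± 0.29). In Zfp987 the groups overlapped. In Zfp982, named after its values were seen, both shYthdf2 libraries were lower, at 90.7 and 91.9 CPM against 78.8 and 86.2 (-0.15 ± 0.11, adjusted p = 0.492 in edgeR). Of the Zfp982 exon bases 9.27% are shared with Gm13161.

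Summed over the chromosome 4 members, the level was 1270 and 1187 CPM in shScramble and 1277 and 1543 in shYthdf2. The log2 ratio of the group means was 0.20. Replicate 2 of shYthdf2 held the highest value of the 4 libraries for 9 of the 12 tested members, and without it the median change of the cluster was -0.01 in place of 0.18. With replicate 1 of shYthdf2 left out instead, the median was 0.33 and 5 members were called higher in edgeR (Zfp978, Zfp984, Zfp985, Zfp990 and Zfp993, adjusted p from 0.0159 to 0.0287), in a fit that called 3.28% of all genes higher and 2.67% lower. Replicate 2 was also the library with the highest sum of 2C-like markers (328.2 CPM, against 57.2 to 120.6), and the part of those cells in the result was not tested. The median was 0.11 over the 4 tested cluster members with under 10% shared windows and 0.19 over the 6 that are not also listed on an extra contig.

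**Figure D3:**
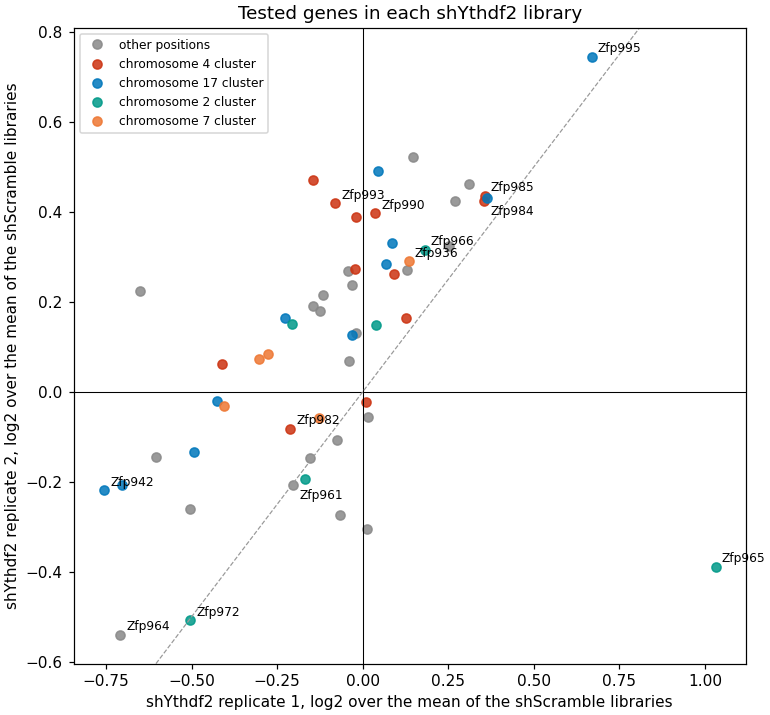
Each tested member in shYthdf2 replicate 1 (horizontal) and replicate 2 (vertical), both as log2 of its level over the mean of the shScramble libraries, with a dashed line where the replicates are equal. Of 56 members 47 lie above the line, 18 are above 0 in both replicates, 16 below 0 in both, and 18 above 0 in replicate 2 only.

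Genes that are not members but lie between the first and last member of a cluster were read for comparison. They were taken by position only and may include relatives of the members with shared sequence. Such relatives were not set apart. On chromosome 4, of 35 such neighbours tested, 29 had a positive log2 fold change, with a median of 0.17, and 24 were highest in shYthdf2 replicate 2. For 2 of them the change was called. Gm13136 had 341 and 234 reads in shScramble and 527 and 595 in shYthdf2 (0.92 ± 0.20, adjusted p = 0.0364 in edgeR). Gm13231 had 154 and 109 reads against 244 and 331 (1.08 ± 0.26, adjusted p = 0.0490). The neighbours on chromosome 2 had a larger median of 0.29, with 23 of 32 positive and 22 of 32 highest in shYthdf2 replicate 2, so the split between the shYthdf2 replicates was seen beyond chromosome 4. On chromosome 7 the median was -0.11, with 10 of 26 positive and 10 highest in that library. Over all tested genes 21.8% were highest in shYthdf2 replicate 2, against 58.9% (33 of 56) of the members and 40.6% of the other Zfp genes. The library had 35305720 counted reads, against 34812976 in shYthdf2 replicate 1 and 36422510 and 31113006 in shScramble. The part of depth in this pattern was not tested.

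**Figure D4:**
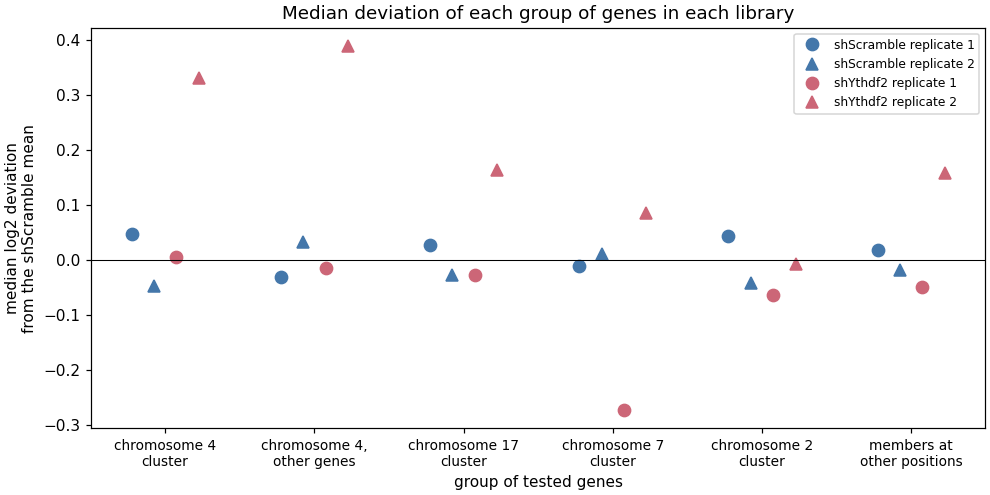
Median over tested genes of the log2 deviation from the shScramble mean, for each group of genes and library, with circles for replicate 1, triangles for replicate 2, blue for shScramble and red for shYthdf2. In the chromosome 4 cluster shYthdf2 replicate 2 stands at 0.33 and replicate 1 at 0.00, and the other genes of that interval show 0.39 and -0.02.

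On chromosome 17 none of the 11 members passed the adjusted threshold. Their median log2 fold change was 0.05, with 6 positive and 5 negative, and the summed level was 122.5 and 117.5 CPM in shScramble and 114.4 and 138.9 in shYthdf2. Besides Zfp995, Zfp947 read 1.94 and 1.87 CPM against 2.46 and 2.57 (0.40 ± 0.32). Zfp942, the member next to Zfp995, read 13.3 and 13.4 CPM against 7.90 and 11.5, lower in both shYthdf2 libraries (-0.46 ± 0.22, adjusted p = 0.264 in edgeR). Zfp983 read 2.22 and 3.78 CPM against 1.84 and 2.60, where the groups overlapped (-0.43 ± 0.37). The median over 37 neighbouring genes tested was 0.01, and 1 of them, Lix1, was called higher, with 23 and 33 reads against 142 and 117 (2.14 ± 0.38, adjusted p = 0.0194 in edgeR).

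The chromosome 2 cluster had the lowest median level of its tested members, at 1.97 RPKM against 2.12 on chromosome 17. Zfp965, Zfp966, Zfp967, Zfp968 and Zfp973 shared 68.9% to 100% of their windows with another gene's transcript, so their low counts are uncertain. The part of such sharing in the low level was not tested. Zfp967, Zfp968 and Zfp973 had 3 to 14 reads in each library and did not pass the filter on low counts. Of the 6 tested, 3 were positive and 3 negative, with a median of 0.04. Most of the reads came from Zfp970 (21.9 and 22.0 CPM against 22.6 and 24.3) and Zfp971 (28.4 and 25.1 against 23.2 and 29.7), with log2 fold changes of 0.09 ± 0.15 and -0.02 ± 0.16. Zfp972 had the lowest change of the cluster, at 1.42 and 2.32 CPM against 1.32 and 1.31 (-0.50 ± 0.40, adjusted p = 0.530 in edgeR). Leaving out a shScramble library took this change to -0.81 without replicate 1 and -0.11 without replicate 2. Zfp965 had the highest, from 18 and 5 reads against 23 and 9. Its interval of -1.29 to 2.21 says only that the change could not be measured from these reads. With 100% of its windows shared, those few reads cannot be tied to Zfp965 alone.

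On chromosome 7 all 5 members were tested and 4 had a negative log2 fold change, with a median of -0.09. Zfp936, the most abundant, read 92.0 and 61.8 CPM in shScramble and 84.4 and 94.0 in shYthdf2. The spread within shScramble spanned most of the range (0.21 ± 0.17, adjusted p = 0.524 in edgeR). Without replicate 1 of shScramble the change was 0.53 with an adjusted p of 0.0481, and without replicate 2 it was -0.04, so that 1 control library decided the sign. Zfp977 read 20.96 and 19.81 CPM against 15.4 and 19.9, and was the lowest of the cluster at -0.21 ± 0.18. Of its exon bases 18.5% are shared with Gm21028.

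Among the 22 tested members outside these clusters 12 were positive and 10 negative, with a median of 0.02. Zfp961 was the only one of the 6 members highest in RPKM with a negative change. It read 114.6 and 99.8 CPM in shScramble and 93.1 and 92.9 in shYthdf2, lower in both (-0.21 ± 0.11, adjusted p = 0.338 in edgeR). With replicate 1 of shScramble left out it became -0.10, and with replicate 2 left out -0.30. Zfp932 read 21.02 and 22.76 CPM against 21.2 and 26.4 (0.12 ± 0.16). Zfp953 on chromosome 13 read 12.9 and 10.5 CPM against 8.25 and 9.78 (-0.38 ± 0.21), and 8.60% of its exon bases are shared with Zfp595. Zfp964 on chromosome 8 had the most negative change of the 56 tested members, from 61 and 49 reads in shScramble to 34 and 40 in shYthdf2 (-0.62 ± 0.39, adjusted p = 0.415 in edgeR). Zfp959 on the distal part of chromosome 17 read 4.78 and 5.08 CPM against 6.11 and 6.79 (0.39 ± 0.24). For Zfp964, Zfp953 and Zfp959 the groups did not overlap, and no difference passed the adjusted threshold. Both shYthdf2 libraries lay above both shScramble libraries for 5 of the 22 and below for 4, beside 26.2% and 25.5% of all genes tested.

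Members with and without a KRAB box overlapped in their changes. The 49 tested members with the box by the wider pattern had a median log2 fold change of 0.05 and the 5 without it -0.09, with values from -0.62 to 0.71 and from -0.50 to 0.40.

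The proteins through which KZFPs act were read from the same comparison as a list of 32 genes of retroelement silencing, all of them tested. In edgeR 0 were called higher and 0 lower, and 4 had an unadjusted p under 0.05 in the higher and 2 in the lower direction, against 11% and 9.8% of all genes. All 32 intervals lay within -1 to 1, with a median change of -0.02. Trim28, the corepressor bound by the KRAB box, stood at 1884 ± 220 CPM in shScramble and 2077 ± 233 in shYthdf2 (SD, n = 2; 0.14 ± 0.12, adjusted p = 0.569). Setdb1, the H3K9 methyltransferase recruited by TRIM28, stood at 185.8 ± 18.5 and 239.8 ± 1.42 CPM (0.37 ± 0.11, adjusted p = 0.0935 in edgeR and 0.0320 in DESeq2). Daxx, the H3.3 chaperone that works with ATRX, had a change of 0.44 ± 0.12 (adjusted p = 0.0702 in edgeR and 0.0169 in DESeq2), and H3f3a, a gene of histone H3.3, 0.35 ± 0.10 (0.0913 and 0.0275). Their partners in the list had negative values, -0.26 ± 0.16 for Atrx (adjusted p = 0.392 in edgeR) and -0.13 ± 0.15 for H3f3b, another H3.3 gene (adjusted p = 0.682). Without shYthdf2 replicate 2 the change of Atrx was -0.56, and without shYthdf2 replicate 1 that of H3f3b was -0.36, each in a fit with a lone shYthdf2 library. Hells, a chromatin remodeller needed for DNA methylation, was lower at -0.32 ± 0.11 (0.122 and 0.0486). Pphln1, a subunit of the HUSH silencing complex, had -0.39 ± 0.12 with an adjusted p of 0.109 in edgeR. Daxx, Atrx, H3f3a, H3f3b, Hells and Pphln1 were named after their values were seen.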

How the data were processed

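The table held read counts per gene, which the authors made with featureCounts 2.0.3 on mm10 (NCBI RefSeq exons, both reads of a pair counted singly, no strand option) from poly(A) RNA. The submitters' processing notes also name fastp 0.19.4, HISAT2 2.2.1 and DESeq2 1.40.2. Use was made of the 4 deposited count columns, and the number of further columns with values of a sample was 0. Groups came from the sample titles. Every gene was fitted in edgeR 4.0.16 (R 4.3.3, TMM scaling, filterByExpr with a minimum count of 10 and total of 15, quasi-likelihood F test, two-sided, no covariates). Adjusted p-values cover all 18341 genes that passed, and the SE was derived from the F statistic. CPM are TMM-scaled, and RPKM divide CPM by the exon length on the chromosome itself. DESeq2 1.42.0 and limma 3.58.1 served as alternatives, as did other scalings and filters, halved counts, the replicate block and each library left out.

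With 2 libraries a group, the smallest p that exact permutation can give for 1 gene is 0.333, so it was not run. Tested on simulated counts for this comparison (17853 genes), edgeR recovered 72.5% of 200 genes changed by 1 on the log2 scale. The changed genes were drawn from those with higher counts, and the spread followed the trend over genes. Recovery of smaller changes and of genes with few reads was not simulated. The members, the lists of cofactors and markers and the rules were chosen with earlier results of these data known. Named genes were the 6 with the highest RPKM, the 5 largest and 5 smallest changes at a mean of at least 1 CPM, the extremes of each cluster, and Zfp932, Zfp961 and Zfp989. Zfp957, Zfp966, Zfp967, Zfp968, Zfp970, Zfp971, Zfp973, Zfp980, Zfp981, Zfp982, Zfp992 and Zfp993 were named after their values were seen. Protein sequences are not printed. Of the members 61 were matched by symbol to GENCODE M21 and Zfp996 was not.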

Additional observations from a re-analysis of the deposited data

How the results depend on the processing

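In each fit with a library left out, 1 group has a lone library, which is assumed to vary like the other group. The number of members called higher at an adjusted p under 0.05 was 0 in edgeR and 3 with no filter on low counts, 3 with DESeq2 and 3 with the replicate block, and it ran from 0 to 5 with a library left out. The number called lower was 0 and became 1 (Zfp942) with the block. For the cofactor list the number called higher was 3 with no filter, 3 with DESeq2 and 3 with the block. The number of cofactors called lower was 3 with the block and 1 with DESeq2. Both numbers also moved with a library left out, most without shYthdf2 replicate 2. Of the fits with a library left out, that one also called the largest share of all genes. These settings also called more of all genes: 3.58% higher and 2.76% lower with no filter, 10.1% and 9.13% with the block, and 3.28% and 2.67% without shYthdf2 replicate 1. The replicate block does not rest on a stated pairing. The labels give no shared batch, and the deviations of libraries with the same number had a correlation of 0.225 over all tested genes and 0.407 over the members.

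Medians moved most with the libraries. With a library left out the median change ran from -0.043 to 0.16 over the members, from -0.0061 to 0.33 in the chromosome 4 cluster, from -0.031 to 0.16 in the chromosome 17 cluster, from -0.27 to 0.075 in the chromosome 7 cluster and from -0.17 to 0.054 in the chromosome 2 cluster. The last was also 0.098 with no filter, -0.11 with a mean of at least 1 CPM, -0.022 with halved counts and 0.093 in DESeq2. Changes of single members with a library left out were compared for the 20 genes named by rule, and the sign turned for 7 of them, given here with their range. These were Zfp936 (-0.044 to 0.53, lowest without shScramble replicate 2), Zfp965 (-0.40 to 1.52, with -0.12 without shScramble replicate 2 and -0.40 without shYthdf2 replicate 1), Zfp983 (-0.76 to 0.00074, highest without shScramble replicate 2), Zfp987 (-0.41 to 0.062, highest without shYthdf2 replicate 1) and, lowest without shYthdf2 replicate 2, Zfp932 (-0.043 to 0.27), Zfp978 (-0.019 to 0.39) and Zfp988 (-0.022 to 0.27). Medians over members not on an extra contig (0.03, 50 genes) and over those with under 10% shared windows (-0.02, 42 genes) were added after the data were seen. The Ythdf2 change stayed between -1.59 and -1.50 with a library left out. The causes were not tested.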
